A study of Bos taurus with 12 samples.

Results

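MiRNAs of the mammary gland in lactation were compared with those of the non-lactating gland in small RNA libraries from 12 cows, which is the whole series. The 6 lactation libraries are those of cows with high (HP, n = 3) and low (LP, n = 3) milk protein percentage at the peak of lactation, and the 6 non-lactating libraries are those of cows with high (HD, n = 3) and low (LD, n = 3) milk protein percentage in the dry period before calving. All of the cows were multiparous Chinese Holsteins, healthy and free of mastitis, and each library came from a biopsy of a different cow, so that stage was compared between cows and not within them. Libraries were placed in a stage by their labels alone. The deposited table lists 426 pairs of a mature miRNA with a precursor, from which 1 row was kept for each of 388 mature miRNAs.

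A miRNA is cut from a hairpin precursor, loaded into an Argonaute protein, and lowers the stability and translation of messenger RNAs that pair with its seed. During lactation the alveolar epithelium makes milk protein, fat and lactose and is served by a dense bed of capillaries. In the dry period secretion stops, part of the epithelium is lost and renewed, and leukocytes and connective tissue take up more of the gland. A biopsy holds all of these cells. In such bulk tissue fewer cells of a type and less of a miRNA per cell cannot be told apart, which holds for every difference below.

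The values are RPM, the reads of a miRNA scaled to the same total of known miRNA reads in every library, without correction for length. The reads that stand behind them, inferred from the value of a single read, numbered 6026620 to 23577193 per library and were fewer in lactation (mean 10175400 against 18900800, two-sided exact permutation test, p = 0.0108), although the ranges overlapped. These implied reads are those assigned to the 426 entries of known miRNAs and are not sequencing depth. The paper reports nearly equal numbers of clean reads for all libraries. They sum over entries, so that a miRNA with several precursors can count more than once. The smallest level that 3 reads give was 0.127 to 0.498 RPM, and this floor covers counting error only. The tests used normalized RPM, which is RPM over the size factor of the library. HD1 and LD1 stood apart with size factors of 1.48 each.

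Similar numbers of miRNAs were higher and lower in lactation. With a Benjamini-Hochberg adjusted p under 0.05, which is what called means below, 165 of 388 miRNAs (42.5%) were called. Of these, 86 (22.2%) were higher and 79 (20.4%) were lower in lactation. The difference was over 2-fold for 53 of the miRNAs higher in lactation and 45 of those lower, and over 4-fold for 17 and 9. For 85 miRNAs (21.9%) the normalized RPM of the 6 lactation libraries did not overlap with those of the 6 non-lactating libraries. Of these 85, 45 (11.6% of all) were higher and 40 (10.3% of all) were lower in lactation, and all 85 were called. An unadjusted p under 0.05 was found for 196 miRNAs (50.5%). Over all miRNAs, the log2 fold change had a median of -0.01 and its standard error one of 0.24. Calls were found over the whole range of abundance, with 23 among the 68 miRNAs of a mean above 1000 RPM and 54 among the 154 with a mean under 10 RPM.

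Each log2 fold change is lactation over non-lactating on the log2(normalized RPM + 1) scale, with the milk protein phenotype as a covariate, and understates the change of miRNAs of a few RPM. The p-values measure the spread among these cows. Without size factors the balance of calls turned, with 59 higher and 83 lower in lactation. With the log2 of the implied reads of each library added as a covariate, 57 miRNAs were called, 53 of them among the 165, and all 165 kept their direction. These implied reads, called depth below, moved with stage, and their part in the other calls was not tested. The 15 smallest p-values in each direction, 30 miRNAs in all, were called with the depth covariate, without size factors and in every fit that left out 1 library.

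**Figure D1:**
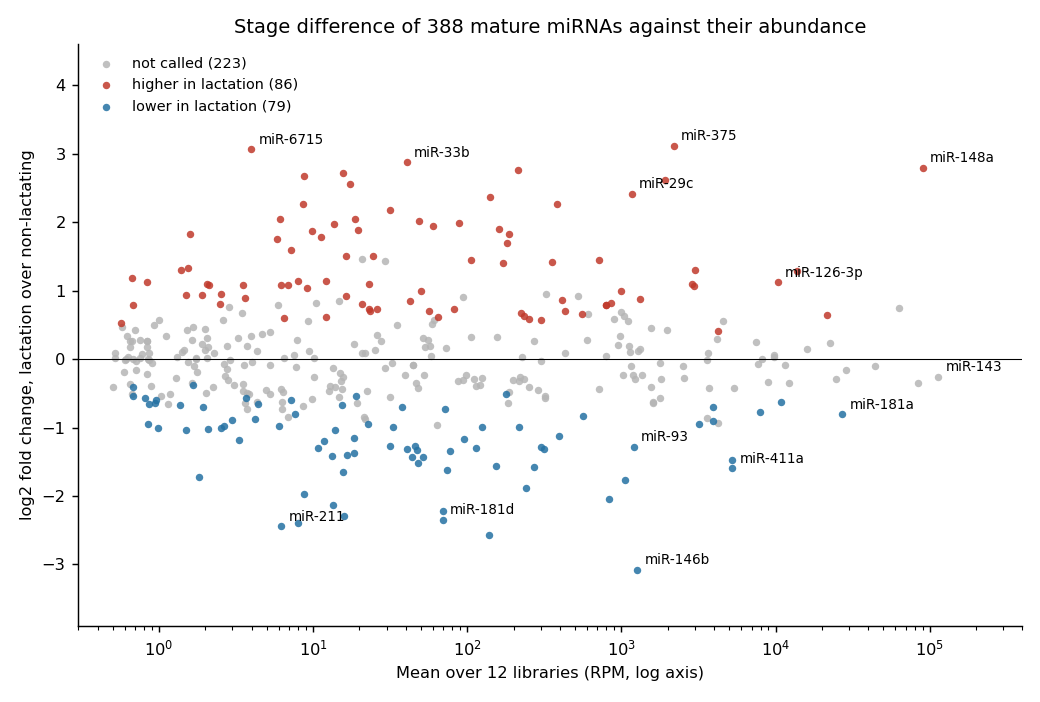
Log2 fold change of lactation over non-lactating for each of 388 mature miRNAs (vertical axis) against its mean RPM over 12 libraries (horizontal log axis). Red points are the 86 miRNAs called higher in lactation, blue points the 79 called lower and grey points those not called; calls extend from miRNAs under 1 RPM to miR-148a.

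The miRNAs most clearly higher in lactation included miR-148a, which had the highest mean RPM of that stage, as well as miR-375 and several of low level. For miR-148a, a miRNA that is abundant in milk and targets the DNA methyltransferase DNMT1, the lactation libraries held 106978 to 191286 RPM (median 155690) and the non-lactating libraries 15769 to 53312 RPM (median 21479). This is a log2 fold change of 2.79 (SE 0.26, limma adjusted p = 4.8e-06). Its family members miR-148b and miR-152 share its seed but were not called, with log2 fold changes of 0.21 and 0.09, so that 1 of the 3 measured members of the family differed. Every lactation library exceeded every other library in miR-148a, whereas the values of both relatives overlapped. The summed RPM of the family averaged 155823 in lactation, against 27214 in the non-lactating period.

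miR-375, a miRNA of pancreatic islets, neuroendocrine cells and secretory epithelia that restrains exocytosis in the islet, had 2477 to 5743 RPM (median 3811) in lactation. The non-lactating libraries had 333 to 727 RPM (median 468). The groups lay far apart, with a log2 fold change of 3.12 (SE 0.29, limma adjusted p = 4.8e-06). On this scale, which understates the change of scarce miRNAs such as miR-6715, this was the highest of the 86 miRNAs called higher. miR-6715 had 5.80 to 10.1 RPM (median 7.73) in lactation and 0 to 0.19 RPM (median 0.04) in the non-lactating period, where all but 1 library were at 3 reads or fewer. With a log2 fold change of 3.07 (SE 0.18), it had the smallest p-value of all miRNAs (limma adjusted p = 7.65e-08). miR-6516 had 11.1 to 22.7 RPM (median 15.4) against 1.2 to 2.31 RPM (median 1.71), a log2 fold change of 2.67 (SE 0.24, limma adjusted p = 4.8e-06). Neither of these 2 overlapped between the stages, and both had low levels beside miR-148a and miR-375.

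**Figure D2:**
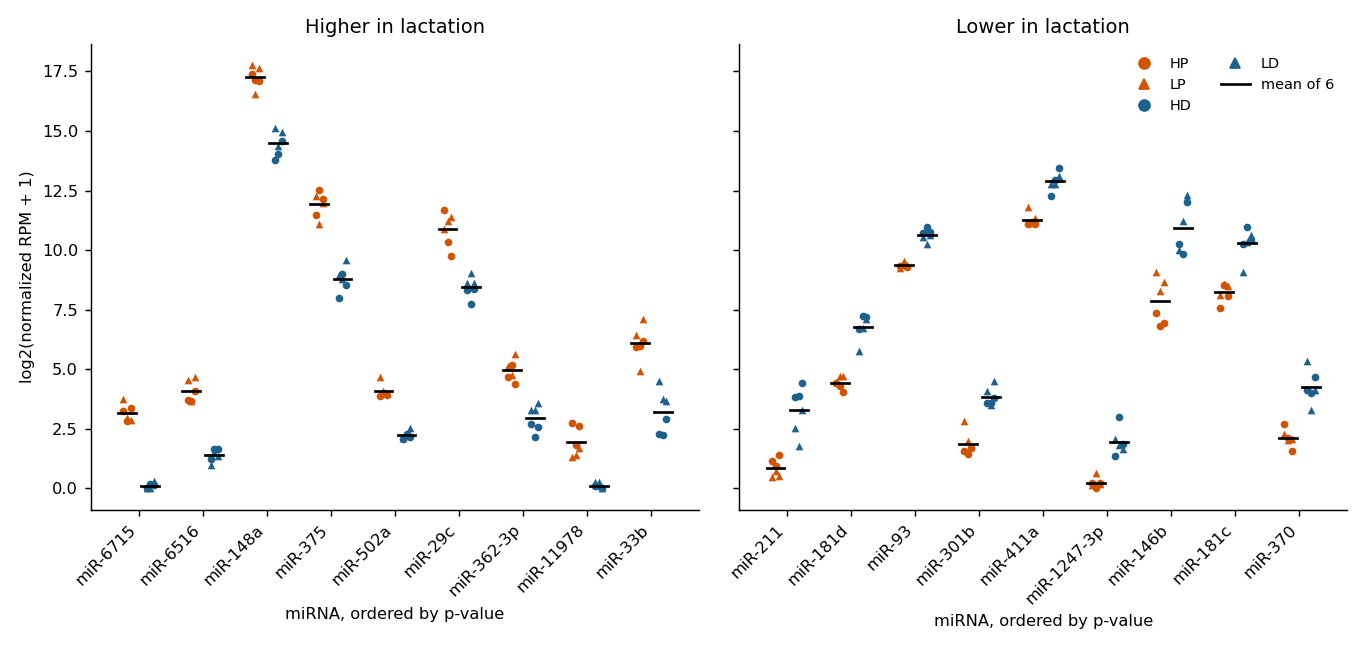
Log2(normalized RPM + 1) in each of 12 libraries for the 9 miRNAs with the smallest p-values in each direction, orange for lactation (HP circles, LP triangles) and blue for non-lactating (HD circles, LD triangles), with a bar at the mean of 6 libraries. No lactation library overlaps with a non-lactating library in any of the panels' miRNAs.

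The miRNAs miR-33a and miR-33b and the family of miR-103 and miR-107, all within protein-coding genes, were higher in lactation. According to RefSeq gene names of the ARS-UCD2.0 assembly, miR-33b lies within SREBF1, the gene of a transcription factor that drives fatty acid synthesis, and miR-33a within SREBF2, that of the related factor for cholesterol synthesis. Both miRNAs are known to repress the cholesterol transporter ABCA1. miR-33b had 33.3 to 125 RPM (median 64.1) in lactation and 4.13 to 31.6 RPM (median 7.42) in the non-lactating period, with a log2 fold change of 2.87 (SE 0.37, limma adjusted p = 7.29e-05). miR-33a, which was chosen after its values were seen, had 10.2 to 37.0 RPM (median 20.5) against 3.45 to 10.9 RPM (median 4.06), at a log2 fold change of 1.97 (SE 0.32, limma adjusted p = 0.000267). For both the 6 lactation libraries exceeded all 6 others once normalized.

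miR-103 and miR-107, which lie within PANK2 and PANK1, genes of pantothenate kinases that open coenzyme A synthesis, were both called higher. In lactation miR-103 ranged from 2457 to 4595 RPM (median 4009) and in the non-lactating period from 1264 to 3167 RPM (median 2052). This gave a log2 fold change of 1.06 (SE 0.16, limma adjusted p = 0.00019). miR-107 had a log2 fold change of 0.79 (SE 0.20, limma adjusted p = 0.00592), and 5 of the 6 lactation libraries exceeded every non-lactating library in normalized RPM. miR-107 was not called without size factors (limma adjusted p = 0.0745) or with the depth covariate (limma adjusted p = 0.0732), whereas miR-103 was in both. These near-identical miRNAs may share reads, since mapping allowed 1 mismatch.

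Of the 5 measured members of the miR-29 family, 4 were higher in lactation and none lower, where 22.2% of all miRNAs were higher. The family, which targets transcripts of collagens and other matrix proteins, had a median log2 fold change of 1.09 beside -0.01 over all miRNAs. miR-29c had 927 to 3022 RPM (median 1969) in lactation and 233 to 585 RPM (median 348) in the non-lactating period, and miR-29b 204 to 434 RPM (median 238) against 59.1 to 177 RPM (median 79.5). Both were without overlap, at log2 fold changes of 2.41 (SE 0.28) and 1.69 (SE 0.23). miR-29a, the most abundant member, was not called, at 2517 to 4979 RPM (median 3426) against 2498 to 4865 RPM (median 3862). miR-29b and miR-29c lie next to each other in the genome, apart from miR-29a. Of the 5, 3 were called higher with the depth covariate.

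In the miR-30 family all 7 measured members had positive log2 fold changes (median 0.69), but only miR-30f and miR-30b-5p were called, at 1.45 (SE 0.26) and 0.99 (SE 0.24). Of all miRNAs 22.2% were higher. None of the 7 was called with the depth covariate. miR-30a-5p, the third most abundant miRNA of both stages, had 55162 to 98245 RPM (median 73482) in lactation and 31231 to 116761 RPM (median 38676) in the non-lactating period. A single library, LD3, held the upper end of that range, and without it the log2 fold change rose from 0.74 (SE 0.40, limma adjusted p = 0.148) to 1.09 (limma adjusted p = 0.0131).

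A cluster of miRNA genes in the introns of CLCN5, a chloride transporter gene, was higher with 1 exception. Of its 8 measured miRNAs 6 were called higher in lactation and 1 lower, where 22.2% of all miRNAs were higher and 20.4% lower. The median log2 fold change of the 8 was 0.87. miR-502a had 12.9 to 19.1 RPM (median 15.1) in lactation and 2.74 to 4.96 RPM (median 3.95) in the non-lactating period. miR-362-3p had 21.7 to 45.4 RPM (median 28.2) against 3.72 to 12.98 RPM (median 7.33). Their log2 fold changes were 1.87 (SE 0.19) and 2.04 (SE 0.23), both without overlap. The more abundant members miR-660 (log2 fold change 0.88, SE 0.17) and miR-532 (0.86, SE 0.19) were also called, as were miR-188 (1.14) and miR-500 (0.71). The other arm of the same hairpin, miR-362-5p, was not (0.49, SE 0.26). The exception was miR-502b, which had 8.63 to 12.8 RPM (median 9.67) in lactation and 17.4 to 44.9 RPM (median 23.9) in the non-lactating period, a log2 fold change of -1.15 (SE 0.30, limma adjusted p = 0.00706). Under the depth covariate 3 of the 8 were called higher and none lower.

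Other miRNAs higher in lactation with small p-values were miR-139, within PDE2A (log2 fold change 1.41, SE 0.19), miR-2478 (2.61, SE 0.37) and miR-1949 (2.26, SE 0.32). The annotation places miR-1949 within SIL1 and also within SNHG4, a gene of a long non-coding RNA. With the depth covariate the log2 fold change of miR-2478 was 1.54 (limma adjusted p = 0.0267). miR-2478 had 1612 to 4355 RPM (median 3339) in lactation and 228 to 1658 RPM (median 382) in the non-lactating period. The deposited values overlapped, since LD1 lay above the lowest lactation library, LP1. In absolute terms the largest gains of mean RPM after miR-148a were those of miR-30a-5p, which was not called, miR-141, miR-22-3p and miR-126-3p. miR-22-3p had 20387 to 29547 RPM (median 24864) in lactation and 9288 to 26780 RPM (median 19333) in the non-lactating period, with a log2 fold change of 0.65 (SE 0.20, limma adjusted p = 0.0202). It was not called with the depth covariate (limma adjusted p = 0.235).

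The miR-200 family maintains the epithelial state by repressing ZEB1 and ZEB2. Of the 6 epithelial markers 4 were called higher in lactation and none lower (median log2 fold change 0.89), where 22.2% of all miRNAs were higher. miR-200a had 2703 to 5426 RPM (median 4325) in lactation and 869 to 3440 RPM (median 1705) in the non-lactating period, without overlap in normalized RPM (log2 fold change 1.30, SE 0.25). The other calls were miR-141 (1.28, SE 0.38), miR-200c (1.09, SE 0.25) and miR-429 (0.69, SE 0.26). miR-200b missed the threshold at 0.65 (SE 0.25, limma adjusted p = 0.0518). miR-429 was the least stable of these and was called in 4 of the 12 fits that each left out 1 library. miR-205, which marks basal and myoepithelial cells in the mammary gland, had 6791 to 15243 RPM (median 10770) in lactation and 7024 to 24206 RPM (median 10861) in the non-lactating period, a log2 fold change of -0.08 (SE 0.19). A single one of the 6, miR-141, was called with the depth covariate, but miR-141 was not called without HD1 and LD1 (limma adjusted p = 0.0598). In the high protein cows alone 1 of the 6, miR-141, was called higher (median 0.56). In the low protein cows alone 3 were, miR-200a, miR-200b and miR-200c (median 1.29), so that no marker was called in both. The summed level of the 6 markers ranged from 34301 to 44370 RPM in lactation and from 14978 to 38785 RPM in the non-lactating period.

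Both arms of miR-126, which lies within the endothelial gene EGFL7 and promotes vascular growth factor signalling, were called higher, at log2 fold changes of 1.12 (miR-126-3p) and 0.74 (miR-126-5p, SE 0.24, limma adjusted p = 0.0251). The summed level of both arms was 10665 to 16528 RPM in lactation and 4676 to 10738 RPM in the non-lactating period. miR-126-5p, at 21.6 to 35.4 RPM against 8.03 to 27.4 RPM, was called in 9 of the 12 fits that left out 1 library. It was not called with the depth covariate (limma adjusted p = 0.145), without size factors (limma adjusted p = 0.055) or in the low protein cows alone (limma adjusted p = 0.453). By contrast, miR-126-3p was called in each of these fits.

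**Figure D3:**
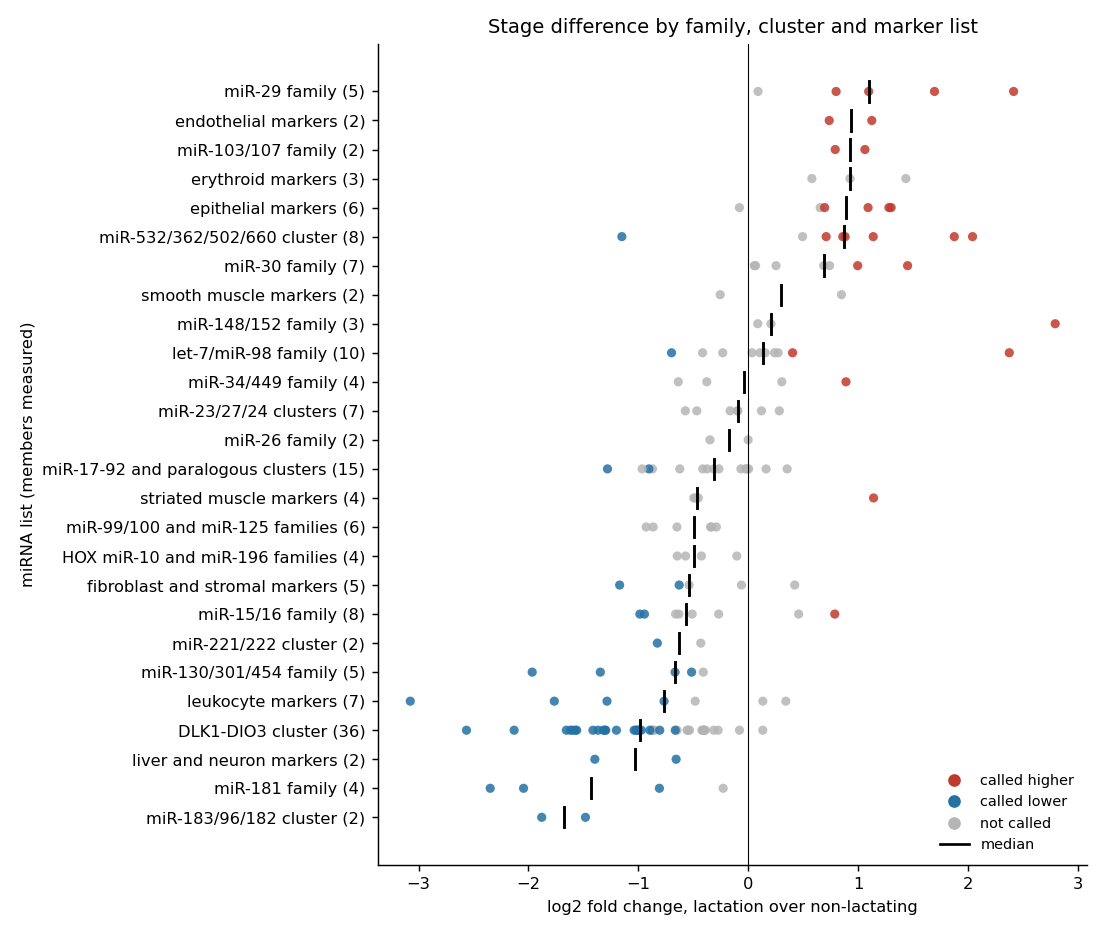
Log2 fold change of lactation over non-lactating (horizontal axis) for the measured members of 26 miRNA families, clusters and marker lists (vertical axis, number of members in parentheses), ordered by their median (black bar). Red points were called higher in lactation, blue points lower and grey points were not called; the DLK1-DIO3 cluster holds 24 blue points and no red point.

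Of the 7 leukocyte markers 4 were called lower in lactation and none higher, where 20.4% of all miRNAs were lower. miR-146a and miR-146b are induced by NF-kB and dampen inflammatory signalling through TRAF6 and IRAK1, and miR-155 is made in activated lymphocytes and macrophages. miR-146b had 109 to 431 RPM (median 249) in lactation and 1013 to 3816 RPM (median 1789) in the non-lactating period. No libraries overlapped, and its log2 fold change of -3.08 (SE 0.43, limma adjusted p = 0.000121) was the lowest of all 388 miRNAs. miR-155 had 135 to 213 RPM (median 159) against 318 to 595 RPM (median 439), again without overlap (log2 fold change -1.29, SE 0.20). miR-146a had 216 to 759 RPM (median 365) against 587 to 3570 RPM (median 1341), with a log2 fold change of -1.76 (SE 0.42, limma adjusted p = 0.00405).

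The median log2 fold change of the 7 was -0.77. The fourth marker called lower was miR-142-5p, called in 7 of the 12 fits that left out 1 library. miR-223, a marker of myeloid cells, had a log2 fold change of 0.13 (SE 0.34) and miR-150, a marker of mature lymphocytes, one of 0.34 (SE 0.47), and the libraries of both overlapped widely. The summed level of the leukocyte list was 6159 to 9292 RPM in lactation and 9862 to 23425 RPM in the non-lactating period, without overlap in these deposited values. Once divided by the size factors the sums overlapped, since HP2 lay above HD1 and HD2. With the depth covariate 2 of the 7 were called lower. In the high protein cows alone 3 were lower and 1, miR-150, was higher (median -0.31), and in the low protein cows alone 3 were lower and none higher (median -1.21).

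miR-181c and miR-181d, which come from 1 transcript and are known for their part in lymphocyte development, were both lower in lactation. miR-181d had 16.6 to 28.1 RPM (median 18.6) in lactation and 78.8 to 165 RPM (median 118) in the non-lactating period, and miR-181c had 179 to 429 RPM (median 311) against 801 to 2175 RPM (median 1225). Their log2 fold changes were -2.35 (SE 0.26, limma adjusted p = 2.57e-05) and -2.04 (SE 0.29, limma adjusted p = 0.000127). The far more abundant miR-181a had 11242 to 24411 RPM (median 19560) against 28043 to 44530 RPM (median 34456). It was called at a log2 fold change of -0.81 (SE 0.24, limma adjusted p = 0.0148), but not without LP3 (limma adjusted p = 0.051) or with the depth covariate (limma adjusted p = 0.666). miR-181b was not called (-0.23, SE 0.22). Members of this family differ by few bases and may share reads.

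In the group of the miR-17-92 cluster and its paralogs, which promote proliferation, 2 of 15 measured miRNAs were called, both lower in lactation. This is a smaller share than among all miRNAs, of which 42.5% were called and 20.4% were lower. These were miR-93 and miR-25, which lie within MCM7, a gene of the helicase that licenses DNA replication. miR-93 had 482 to 831 RPM (median 629) in lactation and 910 to 2517 RPM (median 1889) in the non-lactating period, and miR-25 had 2194 to 3179 RPM (median 2541) against 3457 to 6189 RPM (median 5719). Neither overlapped, at log2 fold changes of -1.28 (SE 0.15, limma adjusted p = 3.34e-05) and -0.90 (SE 0.17, limma adjusted p = 0.000938). miR-106b of the same intron was not called (-0.31, SE 0.15, limma adjusted p = 0.108). The median log2 fold change of the 15 was -0.31. Without LD2 5 of the 15 were called lower, and with the depth covariate 1 was, since miR-25 was not (limma adjusted p = 0.106).

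In the family of miR-130, miR-301 and miR-454 4 of 5 members were lower and none higher (median log2 fold change -0.67), where 20.4% of all miRNAs were lower. The lowest values were those of the neighbours miR-301b, at 1.63 to 4.86 RPM (median 2.29) against 7.71 to 23.9 RPM (median 14.1), and miR-130b, at 28.0 to 49.6 RPM (median 34.1) against 38.7 to 232 RPM (median 96.6). Their log2 fold changes were -1.97 (SE 0.24) and -1.35 (SE 0.27), without overlap once normalized. Without size factors 2 of the 5 were called lower, as after rescaling without miR-148a, and with the depth covariate miR-301b alone was (miR-130b, limma adjusted p = 0.0648). Both measured members of the cluster of miR-183, miR-96 and miR-182, best known from sensory organs, were lower too. miR-182 had 1581 to 3764 RPM (median 2714) in lactation and 3657 to 9859 RPM (median 8151) in the non-lactating period (log2 fold change -1.48, SE 0.31), and miR-183 had a log2 fold change of -1.88 (SE 0.37). Neither of this pair was called with the depth covariate.

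Of 8 measured miRNAs of the miR-15/16 family, which targets BCL2 and cyclins, 1 was called higher in lactation and 2 lower. Of all miRNAs 22.2% were higher and 20.4% lower. miR-15b and miR-16b, neighbours within SMC4, a condensin gene, were lower in lactation, at log2 fold changes of -0.99 (SE 0.21) and -0.95 (SE 0.26). In contrast miR-15a was higher, at 679 to 1195 RPM (median 1013) against 445 to 969 RPM (median 509), with a log2 fold change of 0.79 (SE 0.16, limma adjusted p = 0.00159). The remaining 5 of 8 were not called. With the depth covariate none of the 8 was called, and without LD2 4 were lower and 1 higher. miR-221, which targets the cell cycle inhibitor CDKN1B, was lower (-0.83, SE 0.22) but not with the depth covariate (limma adjusted p = 0.276), and its neighbour miR-222 was not called (-0.43, SE 0.27).

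miR-211, which lies within the melanocyte gene TRPM1, had the smallest p-value of the miRNAs lower in lactation, at 0.30 to 1.76 RPM (median 0.805) against 1.86 to 19.6 RPM (median 11.2). The log2 fold change of -2.44 (SE 0.27) had a limma adjusted p of 2.24e-05. Both arms of miR-1247 were lower as well. miR-1247-5p had 0.30 to 3.47 RPM (median 1.48) in lactation and 3.30 to 26.4 RPM (median 12.6) in the non-lactating period (log2 fold change -2.39, SE 0.36), and miR-1247-3p had 0 to 0.62 RPM against 1.63 to 7.53 RPM (log2 fold change -1.72, SE 0.24). The level of miR-1247-3p in lactation was near the floor. miR-874, within KLHL3, was lower at 12.4 to 29.0 RPM (median 22.6) against 52.7 to 82.0 RPM (median 64.8), a log2 fold change of -1.43 (SE 0.21).

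The largest group that was lower in lactation was the imprinted DLK1-DIO3 cluster, a locus whose miRNAs are transcribed from the maternal chromosome and are best known from embryonic tissue and placenta. Of 58 miRNA names listed for the locus, 36 mature miRNAs were measured. Of these 24 were called lower and none higher, where 20.4% of all miRNAs were lower. Their median log2 fold change was -0.99. For 11 the 6 lactation libraries lay below all 6 others, as for 10.3% of all miRNAs. The summed level was 2988 to 4308 RPM (median 3335) in lactation and 6637 to 14142 RPM (median 11223) in the non-lactating period.

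miR-411a held most of that sum, with 2067 to 2872 RPM (median 2372) against 5229 to 10208 RPM (median 7930), a log2 fold change of -1.60 (SE 0.21, limma adjusted p = 7.3e-05). Further members with small p-values were miR-370 (2.15 to 5.14 RPM against 6.51 to 58.4 RPM, log2 fold change -2.13, SE 0.32), miR-493 (-1.62, SE 0.25), miR-154c (-1.57, SE 0.25), miR-410 (-1.56, SE 0.27) and miR-134 (-1.02, SE 0.16). miR-379 had the lowest log2 fold change of the cluster (-2.56, SE 0.77) but scattered widely, at 6.64 to 94.3 RPM against 28.3 to 483 RPM. miR-127 and miR-432, which overlap the imprinted gene RTL1, were lower at -1.32 (SE 0.28) and -1.30 (SE 0.26). The libraries of miR-494 and miR-323 overlapped almost fully, with log2 fold changes of -0.08 and 0.13.

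The direction was shared by nearly all members, since 33 of 36 had a negative log2 fold change in the high protein cows and in the low protein cows. The number called lower was 22 without size factors, 19 after rescaling without miR-148a, 22 without HD1 and LD1 and 11 with the depth covariate. In the high protein cows alone 22 were called lower, and in the low protein cows alone 4 were, with medians of -1.19 and -0.63. Whether the phenotypes differ was tested for each miRNA and no difference passed the adjustment.

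**Figure D4:**
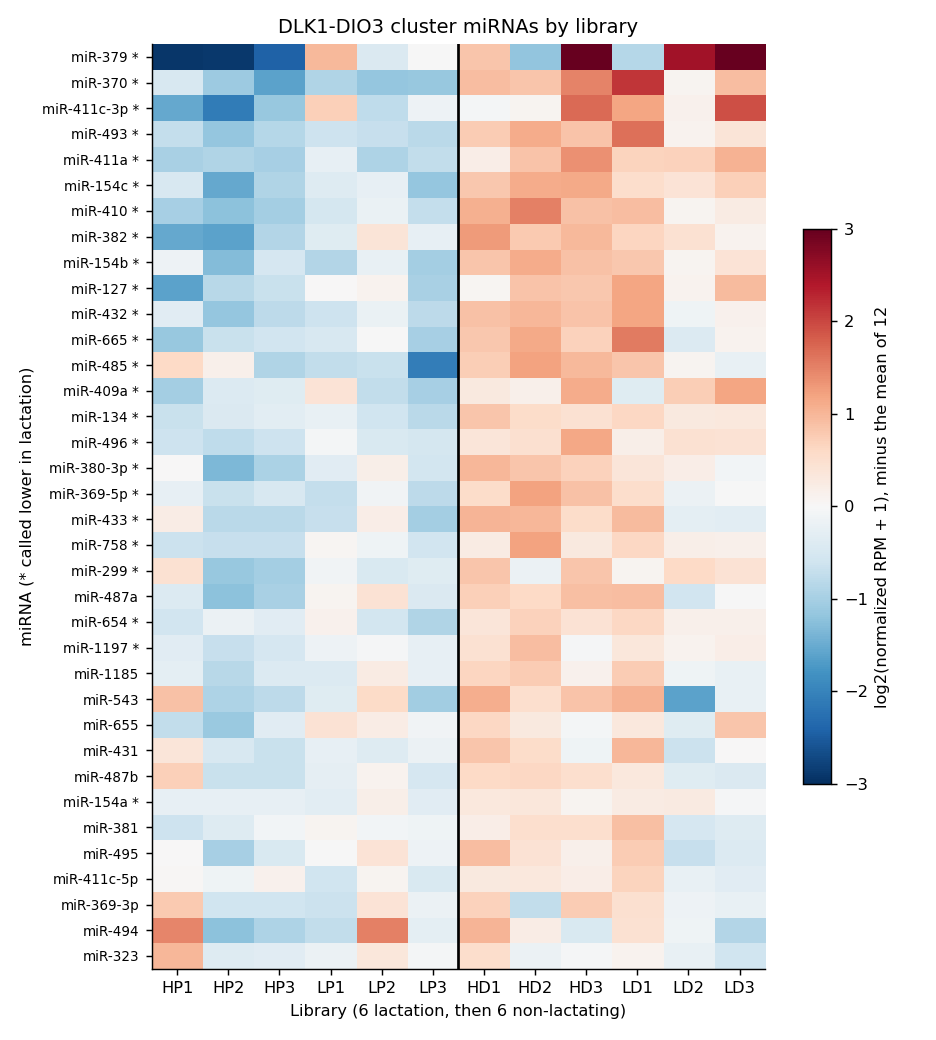
Log2(normalized RPM + 1) minus the mean of 12 libraries for the 36 measured miRNAs of the DLK1-DIO3 cluster (rows, ordered by log2 fold change, asterisk for the 24 called lower) in 6 lactation and 6 non-lactating libraries (columns, divided by a line). Blue is below and red above the mean, and colours saturate at the ends of the scale; most rows are blue on the left and red on the right, whereas miR-494 and miR-323 in the lowest rows are not.

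Several abundant families held few calls or none, where 42.5% of all miRNAs were called. In the let-7 family with miR-98, which is linked to differentiation, 7 of 10 measured miRNAs were not called, and the summed level was 45100 to 94828 RPM in lactation and 44858 to 78032 RPM in the non-lactating period. let-7c was lower (log2 fold change -0.70, SE 0.17, limma adjusted p = 0.00545), and let-7a-3p, the minor arm of a let-7a hairpin, was higher at 116 to 447 RPM (median 189) against 11.9 to 168 RPM (median 36.9), a log2 fold change of 2.37 (SE 0.50). With the depth covariate none of the 10 was called, and that of let-7a-3p was 0.82 (limma adjusted p = 0.3). let-7g was called at 0.40 (SE 0.15, limma adjusted p = 0.0451) but in only 3 of the 12 fits that left out 1 library. Reads of the let-7 family are hard to assign to a single member.

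Of the miRNAs with the largest differences of mean RPM or the highest means, several were not called. miR-26a had 59704 to 78781 RPM (median 70385) in lactation and 74833 to 108008 RPM (median 99715) in the non-lactating period, with a log2 fold change of -0.35 (SE 0.26, limma adjusted p = 0.298). It was called lower without LD1 (limma adjusted p = 0.0457) and without size factors (limma adjusted p = 0.014). miR-21-5p, which is abundant in most tissues, had 16103 to 25511 RPM (median 21028) against 17890 to 44742 RPM (median 24187), and HD1 and LD1 were its highest libraries. miR-143, which had the highest mean of the non-lactating period, had 58516 to 144971 RPM (median 98583) against 79221 to 224174 RPM (median 116122) and was called lower in lactation without HD1 and LD1 together (limma adjusted p = 0.0262). The log2 fold changes of miR-21-5p, miR-143, miR-27b and let-7f were -0.29 (SE 0.19), -0.26 (SE 0.29), -0.17 (SE 0.27) and 0.24 (SE 0.23), and the stages overlapped in all 4.

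None of the 2 miR-26, 7 miR-23/27/24, 6 miR-99/100 and miR-125, and 4 HOX cluster miR-10 and miR-196 miRNAs was called in either direction, with median log2 fold changes of -0.18, -0.10, -0.50 and -0.50. miR-10b, which lies within the HOXD4 gene, had 27046 to 58073 RPM (median 40119) in lactation and 32646 to 76263 RPM (median 43921) in the non-lactating period. These counts depended on HD1 and LD1. Without that pair of libraries 5 of the 6 miR-99/100 and miR-125 miRNAs and 3 of the 4 miR-10 and miR-196 miRNAs were called lower in lactation, at medians of -0.80 and -0.95. In the family of miR-34 and miR-449 1 of 4 was called, miR-34b (0.89, SE 0.20), which had 2.16 to 7.32 RPM against 1.04 to 3.70 RPM and was not called with the depth covariate (limma adjusted p = 0.0651).

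The markers of other cell types varied in different ways. Both smooth muscle markers were without a call, and miR-145 had 73.7 RPM in HP1 beside a median of 7.29 RPM in lactation. Of the 5 fibroblast and stromal miRNAs, miR-214 (log2 fold change -1.17, SE 0.24) and miR-199a-3p (-0.63, SE 0.21) were lower, the latter in 6 of the 12 fits that left out 1 library, and with the depth covariate neither was called (limma adjusted p = 0.117 and 0.458). Of all miRNAs 20.4% were lower. The summed level of the stromal list was 7973 to 15613 RPM against 9203 to 24743 RPM. The 3 erythroid miRNAs miR-144, miR-451 and miR-486 had positive log2 fold changes (median 0.92) that were not called. Their summed level reached 6127 RPM in LD2, and without LD2 all 3 were called higher in lactation (median 1.63, limma adjusted p from 0.00366 for miR-451 to 0.0218 for miR-486), as was miR-144 without LP2 (limma adjusted p = 0.0484). The summed level had medians of 1261 RPM in lactation and 702 RPM in the dry period. The part of these cell types in the results above was not tested.

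Among 4 striated muscle markers miR-499, within MYH7B, was higher (1.14, SE 0.28) at 6.47 to 16.02 RPM against 2.04 to 6.63 RPM, while miR-1, miR-133a and miR-133b were not called. Of the liver and neuron markers the arms of miR-9 were measured, and both were lower in lactation (log2 fold changes of -1.40 and -0.66) but not with the depth covariate (limma adjusted p = 0.102 and 0.166) or in the high protein cows alone. Their summed level was low, at 4.65 to 14.1 RPM against 20.1 to 36.9 RPM.

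The stage difference was also estimated in the high and in the low protein cows, which share no library. Both estimates came from a single fit over all 12 libraries, with a common spread and common size factors. Fits of the high and of the low protein cows alone called 117 and 52 miRNAs. In HP against HD 121 miRNAs (31.2%) were called, 57 higher and 64 lower in lactation, and in LP against LD 86 (22.2%) were, 47 higher and 39 lower. Called in both were 69 miRNAs, all 69 in the same direction. The sign was the same for 308 of the 388 miRNAs (79.4%), and the Pearson correlation of both sets of log2 fold changes was 0.864 across miRNAs, which are not independent replicates. miR-375 had log2 fold changes of 3.55 and 2.68 in high and low protein cows, miR-33b of 3.54 and 2.20, and miR-146b of -3.66 and -2.49. The test of the difference between the phenotypes called 0 miRNAs (limma, smallest adjusted p = 0.288), and 20 had an unadjusted p under 0.05. No other tool was run on that difference.

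**Figure D5:**
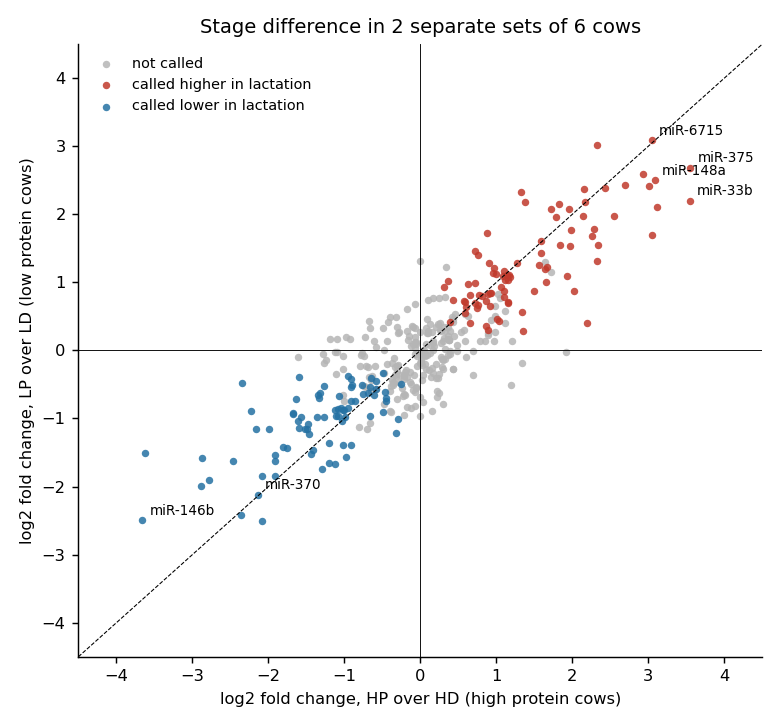
Log2 fold change of each of 388 miRNAs in low protein cows (LP over LD, vertical axis) against that in high protein cows (HP over HD, horizontal axis). Red and blue points are the miRNAs called higher and lower in lactation over all 12 libraries, grey points were not called and the dashed line marks equal values; red points lie in the upper right quadrant and blue points in the lower left one.

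Where neighbouring miRNA genes were called, the calls mostly had the same direction. RefSeq genes of the ARS-UCD2.0 assembly matched 385 of the 388 miRNAs and placed 144 miRNAs in 41 clusters of genes at most 10000 bases apart. Of these clusters 16 held at least 2 called miRNAs, and in 15 of the 16 all calls had the same direction. The exception was the cluster in CLCN5 that holds miR-502b. The cut at 10000 bases split the DLK1-DIO3 locus and CLCN5, so that each gave more than 1 of the 16. Of all miRNAs 22.2% were called higher and 20.4% lower, and whether neighbours agree more often than other miRNAs was not tested. Higher in lactation were, for example, miR-29b with miR-29c and miR-141 with miR-200c, and lower were miR-181c with miR-181d and miR-130b with miR-301b. Neighbours may share a transcript and, where their sequences are alike, reads.

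A pair of mature names, taken as the arms, was measured for 37 precursors. The pair miR-194b and miR-194b-3p had the same log2 fold change (0.26) and the same limma adjusted p (0.31), and may not be separate arms. In 8 of the 37 both members were called, always in the same direction, in 14 a single member was, and in 15 none. Of all miRNAs 42.5% were called, and whether the arms depart from that share was not tested. The arms of miR-199a had opposite signs, at -0.63 (called) for miR-199a-3p and 0.42 (not called) for miR-199a-5p. The arms of miR-30b differed in size, at 0.99 for miR-30b-5p and 0.07 for miR-30b-3p.

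Some miRNAs were found almost only in 1 stage. miR-12035, which the annotation places within MUC16, a mucin gene, gave 1 read over all non-lactating libraries and 75 reads in lactation. The ratio of the levels was 139 (95% exact counting interval 24.3 to 5575, counting error only), from 0.52 to 2.49 RPM in lactation. miR-11978, within COBLL1, had 1.2 to 5.57 RPM (median 2.23) in lactation and 0 to 0.28 RPM (median 0.09) in the non-lactating period, a log2 fold change of 1.82 (SE 0.22, limma adjusted p = 3.34e-05). At such levels a lack of the miRNA in the other stage could not be told from a value under the floor.

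The evenness of the profile was compared by single values of each library. The 10 most abundant miRNAs of a library held 65.9% to 74.0% of the RPM of the 388 miRNAs in lactation (mean 68.6% ± 3.30, SD, n = 6) and 55.7% to 70.9% in the non-lactating period (63.6% ± 5.68, SD, n = 6; exact permutation test, two-sided, p = 0.0952). The Shannon entropy, which is higher the more evenly RPM is spread, was 4.77 ± 0.174 bits in lactation and 4.98 ± 0.315 bits in the non-lactating period (SD, n = 6; exact permutation test, two-sided, p = 0.195). Above 0.5 RPM there were on average 363 miRNAs in lactation and 365 outside it (two-sided exact permutation test, p = 0.682). None of these 3 differences passed 0.05.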

How the data were processed

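Small RNA of 18 to 30 nt from 12 mammary biopsies was sequenced on an Illumina HiSeq instrument. The authors used Cutadapt 2.8 and Trimmomatic 0.36 for trimming, Bowtie 1.1.1 with 1 mismatch for mapping to the ARS-UCD1.2 genome, and miRDeep2 for counting the known miRNAs of miRBase 22.0. The values they deposited are RPM, which they call TPM, and all 12 columns were used. Where a mature miRNA had several precursors, the row of highest mean RPM stood for it. Values were scaled by size factors (median of ratios) and log2 was taken after adding 1. Over all 12 libraries, stage was tested in R 4.3.3 by limma 3.58.1 (moderated, with a mean-variance trend), with the milk protein phenotype as covariate. Stage within each phenotype came from a fit of the 4 group means. In each library at least 99.763% of values were whole multiples of the value of 1 read, within rounding, which gave the implied reads. Single values were tested in Python 3.11.15 with scipy 1.17.1, where 6 libraries against 6 allow no p under 0.00216. On simulated data with 200 of 388 miRNAs changed, the stage test recovered 86.5% at a log2 change of 1 and 98.5% at 2, and called 1.06% and 2.13% of the unchanged miRNAs. The simulated noise was independent between miRNAs and unrelated to implied reads. These rates therefore do not cover deviations that many miRNAs of a library share, or a difference of implied reads between the stages.

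The text names the 15 smallest p-values among the calls in each direction, the 8 largest differences of mean RPM in each direction, the 10 highest means of each stage, miRNAs at or under 3 reads in all libraries of a stage, and members of 26 lists, some of these by count alone. The members and lists were chosen with earlier results of these data known. Library weights, the depth covariate and leaving out HD1 and LD1 were chosen after seeing the data. The alternatives were other scalings, pseudocounts of 0.1 and 5, a mean of at least 10 RPM, no trend, every precursor entry, no phenotype covariate, replicate blocks, each phenotype alone and leaving out each library in turn. Sequences of the miRNAs and genome coordinates were not used here.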

Additional observations from a re-analysis of the deposited data

Results flagged for a closer look

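In 98 groups of 6 libraries a single library was looked for that stood apart from the other 5 by Dixon's test, and 4 were found, where chance gives about 1 in 20. miR-502a was highest in LP1 among the lactation libraries, with 24.2 normalized RPM where the others had 13.9 to 16.1. miR-411a of the DLK1-DIO3 cluster was also highest in LP1, with 3626 normalized RPM where the other lactation libraries had 2159 to 2610. miR-181d was lowest in LD1 among the non-lactating libraries, with 53.4 normalized RPM where the others had 103 to 151, all above the lactation libraries. In LD2 the most abundant miRNA, miR-143, held 28.1% of all RPM, where the most abundant miRNA of the other non-lactating libraries held 12.7% to 16.3%. miR-502a, miR-411a and miR-181d were called without each of these libraries.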

How the results depend on the processing

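Leaving out 1 library at a time gave between 143 (without LP3) and 179 (without LD1) called miRNAs, 74 to 88 higher and 68 to 91 lower, and 134 of the 165 were called in every such fit. The log2 of implied reads as a covariate gave 57 calls, 32 higher and 25 lower, and the low protein cows alone 52, 32 higher and 20 lower. The high protein cows alone gave 117, of which 55 were higher. Without size factors there were 142, with library weights 203, and without HD1 and LD1 186. Every precursor entry as a row of its own gave 180, and pseudocounts, the filter, the trend and no phenotype covariate gave counts within 1.5 times of 165. Under these alternatives none of the 165 calls reversed its direction. For the 176 named miRNAs 4401 of 4714 values kept their side of the threshold, 200 fell short of it, 113 passed it and 0 reversed. Same-numbered libraries come from different cows and did not deviate together (r from -0.39 to 0.114, with 4 of 12 libraries closest to one of their own number). The replicate number as a block gave 171 calls, and the block within phenotype 153.

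Without miR-148a the difference in entropy, lactation minus non-lactating, was 0.0877 bits in place of -0.206, and that of the share of the 10 most abundant miRNAs -0.641 percentage points in place of 5.05. Leaving out 1 library gave -0.300 to -0.129 bits and 3.48 to 6.51 points, with exact two-sided permutation tests of p = 0.0476 and p = 0.039 without LD2. Without LD3 the share differed by 6.15 points (exact permutation p = 0.0476). The number of miRNAs above 0.5 RPM differed by -2.17, and by -4.57 to 0.633 when 1 library was left out, the latter without LD1. The cause of these changes was not tested. The 2 planned count tests on reads recovered from RPM were not run, because RPM rounded to 2 decimals did not pass a stricter check for whole reads in most libraries. In HP1, the library with the fewest implied reads, levels under 0.498 RPM rest on fewer than 3 reads.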

Other observations

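Some of the clearest differences lay in miRNAs outside the lists, which are given here after their values were seen. Both arms of miR-193a, a miRNA with growth-suppressing targets, were higher in lactation. miR-193a-3p had 139 to 801 RPM (median 256) in lactation and 19.7 to 97.3 RPM (median 52.2) in the non-lactating period, without overlap (log2 fold change 2.75, SE 0.41, limma adjusted p = 0.000149), and miR-193a-5p had a log2 fold change of 1.08 (SE 0.28). Its family member miR-193b went the other way, at 16.3 to 35.9 RPM (median 23.7) against 48.8 to 118 RPM (median 72.3), a log2 fold change of -1.44 (SE 0.29, limma adjusted p = 0.00125). miR-190a, within TLN2, was higher at 43.4 to 141 RPM (median 72.0) against 10.2 to 35.1 RPM (median 19.4), with a log2 fold change of 2.01 (SE 0.29).

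Lower in lactation were miR-147, at 7.96 to 40.9 RPM (median 18.4) against 39.1 to 271 RPM (median 93.1) and with a log2 fold change of -2.22 (SE 0.39, limma adjusted p = 0.000499), and miR-708, within TENM4 (-1.34, SE 0.22). Both arms of miR-455, which lies within the collagen gene COL27A1, were lower, at log2 fold changes of -1.32 (SE 0.22) for miR-455-3p and -0.70 (SE 0.18) for miR-455-5p. All of these groups were without overlap in normalized RPM except miR-193a-5p.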
